A study of Mus musculus with 4 samples.

Results

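The nuclear genes that encode subunits of the mitochondrial oxidative phosphorylation complexes were measured by RNA-seq in wild-type mouse embryonic stem cells at day 6 and day 4 after the cytokine LIF was withdrawn. Members were chosen by gene symbol: the Nduf, Uqcr and Atp5 families, Sdha, Sdhb, Sdhc, Sdhd, the Cox4 to Cox8 families, Cyc1 and Cycs. The rule found 96 of the 26994 genes named in the tables. They were 44 genes of complex I, 4 of complex II, 9 of complex III, 20 of complex IV, 17 of complex V, the cytochrome c gene Cycs and the pseudogene Ndufs5-ps. The family rule also takes in 8 complex I assembly factors (Ndufaf genes), and Ndufa4 and Ndufa4l2 were counted with complex IV, where the Ndufa4 protein is now placed.

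The series asks how deletion of the promoter and first exon of Evx1as/Evx1 alters gene expression during differentiation without LIF, and deletion cells were not analysed here. All 4 libraries came from CJ9 embryonic stem cells of strain 129S4/SvJae, a single cell line, with a wild-type genotype label and, by their titles, Cas9 alone. In both groups LIF, which holds these cells in the pluripotent state, had been withdrawn: 2 libraries are labelled day 6 and 2 are labelled day 4. The culture text of the labels states a stay without LIF of 4 days in the library titled day 6 replicate 1, and of 6 days in its partner. It states 2 days in the library titled day 4 replicate 1 and 6 days in the other one of that group. Titles and culture text thus differ for 3 of the 4 libraries, the titles were followed, and every difference between the days rests on them. The labels do not state whether the replicates of a day were grown as separate cultures, so a p-value here reflects the scatter of these 4 libraries alone, which could be technical.

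Oxidative phosphorylation passes electrons from NADH through complex I, or from succinate through complex II, to ubiquinone, then through complex III and cytochrome c to complex IV, which reduces oxygen. Complexes I, III and IV pump protons across the inner mitochondrial membrane, and complex V, the ATP synthase, uses the gradient to make ATP. Most subunits are encoded in the nucleus and imported, while the mitochondrial genome encodes a few hydrophobic core subunits of every complex but complex II. Pluripotent cells are known for active glycolysis, and the use of respiration is known to change as they differentiate.

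Levels are given as FPKM, fragment numbers scaled to transcript length and to the fragments mapped in the library. The deposited tables give no counts, and depth estimated from the width of the deposited FPKM intervals was about 6160000 and 5470000 mapped fragments in the day 6 libraries, against 3470000 and 3370000 in the day 4 libraries. Day 4 replicate 2 stood apart from the other libraries: it had 9449 genes at 1 FPKM or more, against 11206 to 11840 in the others, and its 10 most abundant transcript rows held 19.8% of all FPKM, against 10.4 to 11.8%. Of the 96 members, 4, 4 and 3 were listed at 0 in day 6 replicates 1 and 2 and day 4 replicate 1, and 9 in day 4 replicate 2. A listed 0 is not read as absence, since it was given in that library to Cox7a2, Cox7b, Atp5mpl and Ndufs4, which respiring cells use in general. Many members are short, and short rows carry a further limit on levels: in day 6 replicate 1 the deposited FPKM was 1.45 times the midpoint of its own deposited interval in the median of 19 member rows under 500 bases, and 1.02 times in 35 rows of 1000 bases or more. Which of the values is nearer the true level was not tested, so levels of short and long members are compared with caution.

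The question put to the members was whether their levels differed between day 6 and day 4, complex by complex. Most estimates were positive, 77 of the 92 members tested (83.7%), against 71.6% of all genes tested, and none passed the test. With limma on log2(FPKM + 1) over the 11716 genes whose mean reached 1 FPKM, 0 members and 0 genes passed an adjusted p of 0.05 (percent called 0). At an unadjusted p under 0.05 there were 12 members, and 1793 genes in all (15.3%). The smallest adjusted p among the members was 0.267. The 4 members not tested were Cox6a2, Cox7b2, Cox8b and Cox8c, each under the filter.

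In 40 of 92 members (43.5%) both day 6 libraries were above both day 4 libraries, against a background of 41.6% of all genes tested. The reverse, day 6 below day 4 in every pairing of libraries, was seen in 6 members (6.52%), against 11.5% of all genes. Such genes are called higher and lower here, and the same background holds for each complex, group of subunits and list below. The share of higher members was close to the background and is therefore no result about oxidative phosphorylation genes. The median log2 difference, day 6 minus day 4, was 0.82 over the members and 0.51 over all genes tested. Centring each library on the median of its genes took the members' median to 0.19 and that of all genes to -0.12.

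The complexes did not have like medians. The median log2 difference was 0.52 for complex I, 1.12 for complex II, 0.58 for complex III, 1.25 for complex IV and 1.01 for complex V, and these differences between complexes were not tested. Centred on the median of all genes in each library, complexes I and III turned to -0.10 and -0.05, both above the -0.12 of all genes. Each median depended on which day 4 library day 6 was set against. For complex V it was 0.40 against day 4 replicate 1 and 1.84 against day 4 replicate 2, and for complex IV it was 0.97 and 2.20. For complex I it was 0.60 and 0.39, and for complex III 0.93 and 0.18, so these complexes lay further from replicate 1 and complexes IV and V further from replicate 2. Over all genes tested the corresponding medians were 0.37 and 0.66. Without day 4 replicate 1, limma called 66 members (71.7%) at an adjusted p of 0.05, against 67.1% of all genes tested. Without day 4 replicate 2 it called 59 members (64.1%), against 52.2%, and without either day 6 library it called 0. In those fits the lone day 4 library is assumed to vary as little as the day 6 pair. Of the 66 members, 48 had positive and 18 negative differences, and of the 59, 51 positive and 8 negative.

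**Figure D1:**
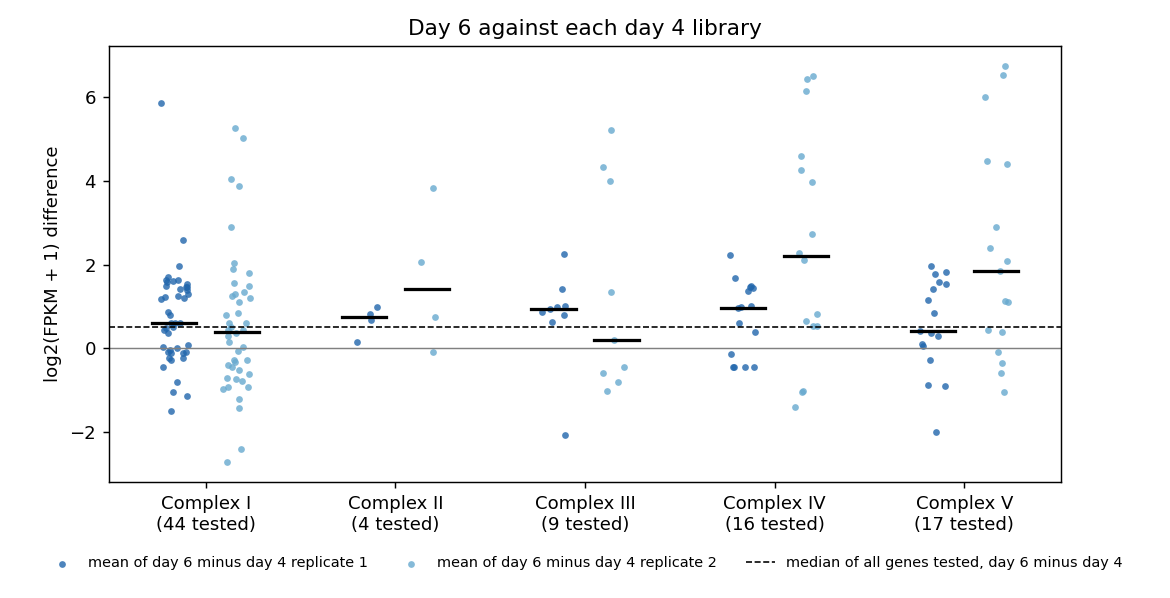
Each point is 1 member tested, placed by its mean log2(FPKM + 1) in the 2 day 6 libraries minus its value in day 4 replicate 1 (dark) or day 4 replicate 2 (light); black bars are medians and the dashed line is the median of all genes tested, 0.51. Complex IV and V points spread much further upward against replicate 2, with medians of 2.20 and 1.84, than against replicate 1, with medians of 0.97 and 0.40.

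Summed over each complex, levels were less far apart than the single genes. All members together summed to 11916 and 10800.3 FPKM in the day 6 libraries, against 8173 and 9744 FPKM in the day 4 libraries, a ratio of means of 1.27. This was 2.39 and 2.16% of all FPKM at day 6, against 1.81 and 1.87% at day 4. Both day 6 libraries were above both day 4 libraries. Complex II summed to 270.0 and 265 FPKM at day 6, against 166 and 144 FPKM at day 4, and complex V to 3903 and 3593 FPKM, against 3009 and 2236 FPKM. These complexes, with ratios of 1.73 and 1.43, did not overlap between the days. Complex I summed to 3104 and 2923 FPKM at day 6, against 1820 and 3222 FPKM at day 4, and complex IV to 3429 and 2918 FPKM, against 2414 and 3117 FPKM. Complex III gave 1146 and 1038 FPKM at day 6, against 699 and 1019 FPKM at day 4. The days overlapped for complexes I and IV, and complex III lay just above at day 6. A sum of bulk RNA cannot tell fewer cells of a type from less RNA per cell.

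**Figure D2:**
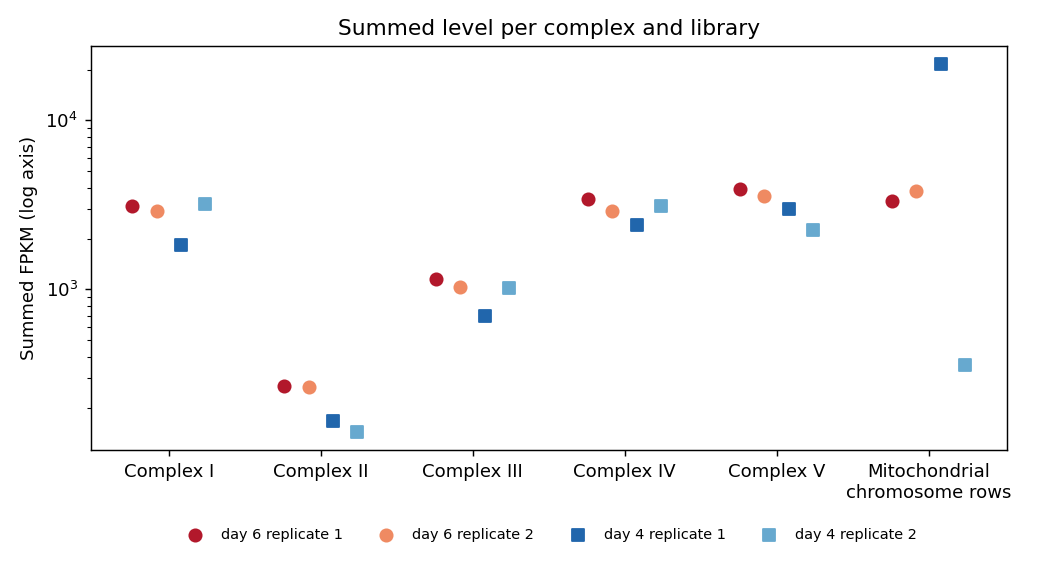
Summed FPKM (log axis) of the nuclear members of each complex, and of the transcript rows on the mitochondrial chromosome, ribosomal RNA rows included, 1 point per library, with day 6 as circles and day 4 as squares. Across libraries the nuclear sums run from 1820 to 3222 FPKM for complex I and from 2236 to 3903 FPKM for complex V. The mitochondrial rows lie much further apart, with sums of 3339 and 3814 FPKM at day 6, against 21467 and 359 FPKM at day 4.

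A sum close to the day 6 level hid a different make-up in day 4 replicate 2. In complex IV the highest pair of genes held 33.5 and 32.5% of the sum in the day 6 libraries, 38.3% in day 4 replicate 1 and 77.3% in day 4 replicate 2, where the pair was Cox5b and Cox6a1. The range was taken over 12 complex IV genes, the 11 general subunits and Cox7a2l. At day 6 the most and the least abundant of these differed by 6.86-fold and 6.68-fold, and 0 of them were under 10 FPKM. In day 4 replicate 1 the range was 34.4-fold with 0 under 10 FPKM, and in day 4 replicate 2 there were 4 under 10 FPKM, 2 of them listed at 0. In complex V the range was 11.9-fold and 11.2-fold at day 6 and 12.6-fold in day 4 replicate 1. Complex V had 0 subunits under 10 FPKM in those 3 libraries and 5 in day 4 replicate 2.

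**Figure D3:**
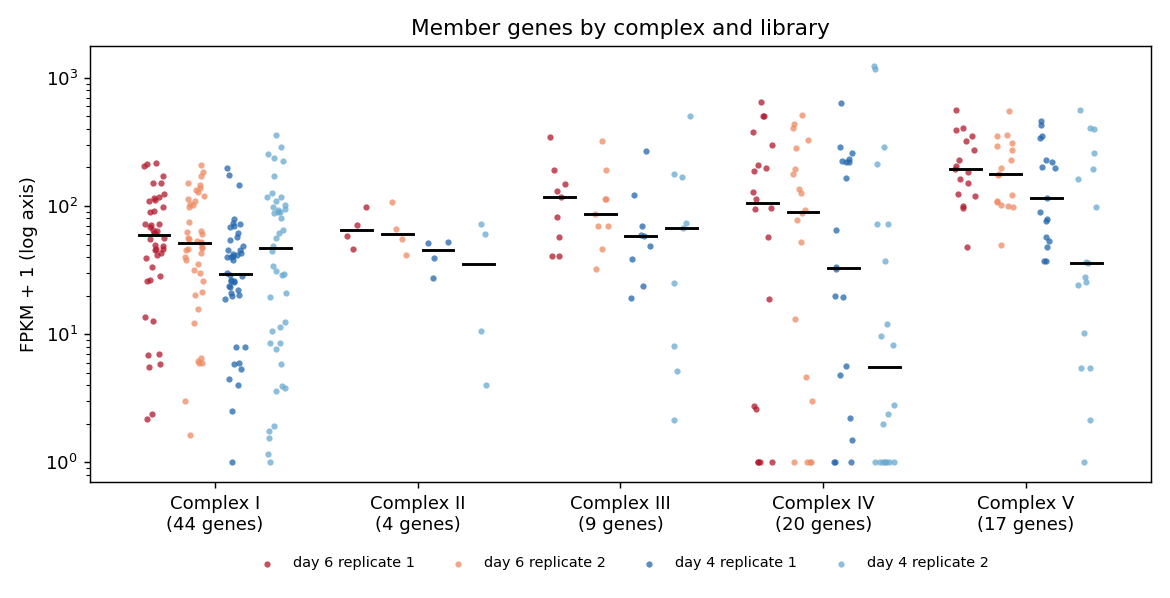
FPKM + 1 (log axis) of every member found, by complex and library, with black bars at the medians. The day 6 libraries have like spreads in each complex, and day 4 replicate 2 spreads from members at 0 to Cox5b at 1240.3 FPKM.

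In complex I the 7 nuclear core subunits, which hold the flavin and the iron-sulfur clusters, had a median log2 difference of 0.67. Of the 7, 4 were higher in both day 6 libraries, against 41.6% of all genes tested. Ndufs3, a subunit of the peripheral arm, had 45.5 and 45.8 FPKM at day 6, against 19.0 and 11.5 FPKM at day 4. Ndufv2, an iron-sulfur subunit of the NADH-oxidising module, had 45.1 and 50.5 FPKM at day 6, against 20.1 and 33.0 FPKM at day 4. For both genes the days did not overlap.

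Ndufs8, an iron-sulfur subunit next to the ubiquinone site, also did not overlap, but only narrowly, at 62.3 and 62.7 FPKM at day 6, against 24.8 and 61.0 FPKM at day 4. The following core subunits overlapped. Ndufv1, which binds NADH and the flavin, had 42.0 and 36.8 FPKM at day 6, against 25.5 and 48.02 FPKM at day 4. Ndufs7, which carries the last iron-sulfur cluster before ubiquinone, had 71.8 and 74.3 FPKM at day 6, against 22.7 and 97.5 FPKM at day 4. Ndufs1, the largest core subunit, had 27.2 and 25.2 FPKM at day 6, against 27.2 and 9.68 FPKM at day 4. In Ndufv1 and Ndufs7 it was replicate 2 that was the higher day 4 library, and in Ndufs1 replicate 1.

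The 29 supernumerary subunits, which surround the core and aid its assembly and stability, had a median log2 difference of 0.47, with 8 higher and 1 lower at day 6. Ndufa3 (chr7:3617373-3620161, mm10), a small membrane subunit, had 151 and 128 FPKM at day 6, against 22.3 and 7.48 FPKM at day 4. Its log2 difference of 3.32 (SE 0.65, limma adjusted p = 0.27) had the smallest p of all members, and it is named for that after its values were seen. Ndufb5, a membrane-arm subunit, had 48.3 and 45.3 FPKM at day 6, against 19.3 and 18.5 FPKM at day 4, and Ndufv3, at the NADH-oxidising tip, had 109 and 151 FPKM, against 56.4 and 55.4 FPKM. These were also picked after their values were seen, as genes whose day 4 libraries were close. The lower member, Ndufs6, a zinc-binding subunit, had 151 and 137 FPKM at day 6, against 197 and 285 FPKM at day 4, a log2 difference of -0.72.

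Ndufs5 was uncertain, because reads can be shared between the gene and a near-identical transcript. It had 60.8 and 54.5 FPKM at day 6, against 0.0013 and 20.1 FPKM at day 4. A row of the transcript annotated as the pseudogene Ndufs5-ps lies at the same place on chromosome 4 (chr4:123712710-123718161, mm10) and held 40.6 FPKM in day 4 replicate 1. With every row of that place summed, Ndufs5 had 60.8 and 54.5 FPKM at day 6, against 40.6 and 20.1 FPKM at day 4, which gave 0.99 as log2 difference in place of 3.67. Many other members have processed pseudogenes as well, and the sources used here do not state how multiply mapped reads were treated.

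The 8 complex I assembly factors, which act on intermediates and are not part of the finished complex, differed in direction. Their median log2 difference was 0.28, with 2 higher and 3 lower at day 6, and the 3 lower genes had the most negative differences of all members. Ndufaf2 (chr13:108052589-108158625, mm10), a late-stage chaperone, had 25.6 and 20.5 FPKM at day 6, against 48.2 and 126 FPKM at day 4, a log2 difference of -1.73 (SE 0.64, limma adjusted p = 0.32). Ndufaf8 had 5.97 and 5.49 FPKM at day 6, against 6.95 and 43.7 FPKM at day 4, a log2 difference of -1.49, which rests on day 4 replicate 2. Ndufaf4 had 1.19 and 0.63 FPKM at day 6, against 4.39 and 2.62 FPKM at day 4, a log2 difference of -1.23. Of the higher genes, Ndufaf3 had 11.6 and 11.3 FPKM at day 6, against 3.01 and 4.81 FPKM at day 4. It was chosen after its values were seen, as the assembly factor with the largest difference.

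Complex II, succinate dehydrogenase, belongs to both the respiratory chain and the citric acid cycle and is encoded wholly in the nucleus. All 4 subunits had positive differences, against 71.6% of all genes tested, and 3 were higher in both day 6 libraries, against 41.6%. Their median log2 difference was 1.12. Sdhc, a membrane anchor that binds haem (chr1:171129157-171150603, mm10), had 97.3 and 106 FPKM at day 6, against 51.1 and 59.6 FPKM at day 4, a log2 difference of 0.87 (SE 0.44, limma adjusted p = 0.41). Sdhd, the other anchor, had 45.3 and 40.6 FPKM at day 6, against 26.7 and 9.52 FPKM at day 4. Sdha, the flavoprotein, had 57.4 and 54.5 FPKM at day 6, against 50.1 and 3.01 FPKM at day 4. Sdha's log2 difference of 1.99 came almost wholly from day 4 replicate 2, whereas Sdhc was separated by a like amount from either day 4 library. Sdhb, the iron-sulfur subunit, overlapped, at 70.1 and 64.7 FPKM at day 6, against 37.97 and 71.5 FPKM at day 4.

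In complex III, 4 of the 9 members were higher in both day 6 libraries, against 41.6% of all genes tested, and 5 overlapped. Cyc1, the cytochrome c1 haem protein, had 81.3 and 69.0 FPKM at day 6, against 37.5 and 65.8 FPKM at day 4, a log2 difference of 0.58 (SE 0.51, limma adjusted p = 0.60). Uqcrfs1, the Rieske iron-sulfur protein, had 39.7 and 31.4 FPKM at day 6, against 18.1 and 73.1 FPKM at day 4, so that the day 4 libraries lay on either side of day 6. Among the 7 other subunits 5 had day 4 libraries more than 4-fold apart, against 21.6% of all genes tested. Uqcrh, the hinge protein next to cytochrome c1, had 188 and 192 FPKM at day 6, against 122 and 4.14 FPKM at day 4. Uqcr11, a small peripheral subunit, went the other way, with 345 and 323 FPKM at day 6, against 69.2 and 501 FPKM at day 4. Both were chosen after their values were seen, to show that the disagreement ran in both directions. Cycs, the soluble carrier between complexes III and IV, had 14.9 and 11.3 FPKM at day 6, against 14.6 and 0.27 FPKM at day 4, and its log2 difference of 1.65 turned to -0.16 without day 4 replicate 2 and was 3.45 without day 4 replicate 1.

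Complex IV, cytochrome c oxidase, held the most abundant members. Cox6a1, the general form of a regulatory subunit, had 645 and 513 FPKM at day 6, against 287 and 1168 FPKM at day 4, for a log2 difference of -0.01. Cox5b (chr1:36691487-36693388, mm10), a zinc-binding subunit on the matrix side, had 500 and 434 FPKM at day 6, against 637 and 1240.3 FPKM at day 4, a log2 difference of -0.93 (SE 0.59, limma adjusted p = 0.48). It was the only complex IV member lower in both day 6 libraries. Cox8a, the smallest general subunit, had 505 and 405 FPKM at day 6, against 164 and 287 FPKM at day 4. It was among 9 of the 16 tested complex IV members that were higher in both day 6 libraries, against 41.6% of all genes tested. Cox4i1, a subunit that takes part in control by ATP, had 378 and 327 FPKM at day 6, against 231 and 71.4 FPKM at day 4.

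The largest difference of all members was that of Cox7b (chrX:106015700-106022450, mm10), a subunit needed for assembly, with 93.9 and 86.8 FPKM at day 6, against 18.5 FPKM and a listed 0 at day 4. Its log2 difference was 4.37 (SE 1.51, limma adjusted p = 0.31). Cox7a2, the general form of another small subunit, had 94.7 and 76.9 FPKM at day 6, against 32.4 FPKM and a listed 0 at day 4, a log2 difference of 3.90. Both genes were also lower in day 4 replicate 1 than at day 6, but the size of the difference depended on a library that lists them at 0. Ndufa4, a subunit on the surface of complex IV, had 208 and 193 FPKM at day 6, against 219.5 and 1.81 FPKM at day 4. Its day 4 libraries were 78.5-fold apart on FPKM + 1, the widest of the members tested, and its log2 difference of 3.02 turned to -0.13 without day 4 replicate 2. Cox6b1, which bridges the monomers of the complex IV dimer, had 301 and 284 FPKM at day 6, against 224 and 11.02 FPKM at day 4. Cox7a2l, which tethers complexes III and IV into supercomplexes, had 128 and 126 FPKM at day 6, against 63.9 and 71.2 FPKM at day 4, with close libraries on both days.

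Several complex IV subunits have a second gene used in particular tissues, and most of these forms were low or listed at 0. Cox6a2, the heart and skeletal muscle form, Cox7b2, a testis form, and Cox8b, another heart and muscle form, were listed at 0 in all 4 libraries. Cox8c, a testis form, was listed at 0 except for 1.22 FPKM in day 4 replicate 1. Cox4i2, a form known for oxygen-sensitive use in lung, took 0.418 and 1.10% of the summed Cox4i1 and Cox4i2 level at day 6, against 1.604 and 1.93% at day 4. The days did not overlap, yet Cox4i2 itself was at 1.59 and 3.64 FPKM at day 6, against 3.77 and 1.40 FPKM at day 4, and the exact two-sided permutation test gave p = 0.333, the smallest that 2 against 2 allows.

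Cox6b2 and Cox7a1 were exceptions. Cox6b2, known as the testis form of Cox6b (chr7:4751792-4753094, mm10), had 56.5 and 51.0 FPKM at day 6, against 19.0 and 7.25 FPKM at day 4, a log2 difference of 2.09 (SE 0.60, limma adjusted p = 0.29). It made up 15.8 and 15.2% of the summed Cox6b1 and Cox6b2 level at day 6, against 7.82 and 39.7% at day 4, so that its level, but not its share, separated the days (exact two-sided permutation p = 1.000 for the share). The 7 male germ cell markers summed to 2.53 and 1.76 FPKM at day 6, against 8.58 and 1.201 FPKM at day 4. Tnp1, Prm1, Prm2 and Piwil1 were listed at 0 in all 4 libraries. Ddx4 had 2.32 and 1.72 FPKM at day 6, against 5.67 and 0.98 FPKM at day 4. Sycp3 had 0.21 FPKM and a listed 0 at day 6, against 2.63 FPKM and a listed 0 at day 4. The part of germ-like cells in the Cox6b2 level was not tested. Cox7a1, the heart and skeletal muscle form, had 17.8 and 12.2 FPKM at day 6, against 4.66 FPKM and a listed 0 at day 4. It held 15.8 and 13.7% of the summed Cox7a1 and Cox7a2 level at day 6 and 12.6% in day 4 replicate 1. No share could be had in day 4 replicate 2, which lists both genes at 0.

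The 12 striated muscle markers summed to 412 and 57.6 FPKM at day 6, against 44.7 and 84.1 FPKM at day 4. Acta1 alone gave 396 and 43.4 FPKM of this at day 6, and Myog was listed at 0 in all libraries. Of the 6 muscle markers tested, 2 were higher and 1 lower. The lower one, Actc1, had 1.14 and 1.03 FPKM at day 6, against 3.80 and 1.61 FPKM at day 4. Myl4, an atrial and embryonic myosin light chain, had 7.07 and 4.605 FPKM at day 6, against 0.81 FPKM and a listed 0 at day 4, and Tnni3, cardiac troponin I, had 2.87 and 5.36 FPKM, against a listed 0 and 0.60 FPKM. Myh6, a cardiac myosin, was at 0.155 and 0.157 FPKM at day 6, against 2.04 and 1.32 FPKM at day 4. The marker sums at day 6 were thus mostly Acta1, and the part of muscle-like cells in the Cox7a1 level was not tested. Ndufa4l2, a form of Ndufa4 known as hypoxia-induced, had 1.75 and 2.00 FPKM at day 6, against 0.48 and 0.99 FPKM at day 4. Its share of the pair was 0.834 and 1.02% at day 6, against 0.220 and 35.3% at day 4, the last because Ndufa4 itself was at 1.81 FPKM there.

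Promoter windows from RefSeq, 250 bases before to 50 after each annotated start (GRCm38.p6), were found for 77 members, 82 windows in all, and searched for letters known from promoters of respiratory genes. The windows below show 1 promoter with letters for both NRF1 and GABPA, from the abundant Cox6a1, 1 with the NRF1 letters, from Cycs, and the Cox8 pair, of which Cox8a was abundant and Cox8b was listed at 0. They are printed 5′ to 3′ on the strand of the gene, which is the minus strand for all 4. Capitals mark GCGCATGCG (NRF1) and CCGGAAG (GABPA) on either strand. In Cox6a1 the NRF1 letters match on both strands with all but 1 base shared.
Cox6a1, chr5:115348909-115349208, minus strand: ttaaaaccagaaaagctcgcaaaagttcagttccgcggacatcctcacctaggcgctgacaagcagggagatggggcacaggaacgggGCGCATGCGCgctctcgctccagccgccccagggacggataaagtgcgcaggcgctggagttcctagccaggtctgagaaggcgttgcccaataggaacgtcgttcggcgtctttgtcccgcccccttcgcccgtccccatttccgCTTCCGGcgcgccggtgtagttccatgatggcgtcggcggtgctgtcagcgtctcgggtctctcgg
Cycs, chr6:50566520-50566819, minus strand: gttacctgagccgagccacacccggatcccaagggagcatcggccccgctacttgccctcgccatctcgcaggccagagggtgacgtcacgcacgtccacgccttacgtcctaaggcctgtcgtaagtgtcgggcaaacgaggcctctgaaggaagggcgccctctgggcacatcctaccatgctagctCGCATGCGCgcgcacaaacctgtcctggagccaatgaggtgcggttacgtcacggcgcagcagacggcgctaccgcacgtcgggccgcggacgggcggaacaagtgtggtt
Cox8a, chr19:7217567-7217866, minus strand: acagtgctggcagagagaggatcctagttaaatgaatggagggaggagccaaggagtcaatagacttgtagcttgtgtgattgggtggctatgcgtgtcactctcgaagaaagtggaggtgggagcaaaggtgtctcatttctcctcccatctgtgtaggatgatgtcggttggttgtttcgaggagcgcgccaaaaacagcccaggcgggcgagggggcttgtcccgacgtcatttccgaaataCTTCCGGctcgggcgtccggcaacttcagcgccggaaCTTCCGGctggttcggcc
Cox8b, chr7:140900397-140900696, minus strand: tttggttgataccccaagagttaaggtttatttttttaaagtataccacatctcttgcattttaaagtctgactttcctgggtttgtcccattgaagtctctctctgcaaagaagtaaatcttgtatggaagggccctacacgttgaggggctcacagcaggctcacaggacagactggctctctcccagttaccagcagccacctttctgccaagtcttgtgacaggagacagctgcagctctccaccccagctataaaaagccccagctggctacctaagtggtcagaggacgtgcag

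Cox8b held none of the letters for NRF1, GABPA, YY1 or ERRA and had the letters of a TATA box, TATAAA. The abundant Cox8a had the GABPA letters at 2 places. Letters and level did not always go together. Cox5b, at 500 and 434 FPKM at day 6, and Atp5b, at 562 and 550.4 FPKM, held none of the letters for NRF1, GABPA, YY1 or ERRA either. Over the member windows, both strands counted, GCGCATGCG was found in 11 of 82 (13.4%), against 1.75% of all 32851 RefSeq windows of the same length. CCGGAAG was found in 19 (23.2%), against 8.86% of all windows. AAGATGGC, for YY1, was found in 11 (13.4%), against 2.75%, and CAAGGTCA, for ERRA, in 4 (4.88%), against 1.56%. The GC box GGGCGG was found in 37 (45.1%), against 35.7%, and TATAAA in 9 (10.98%), against 13.6%. Member windows were richer in GC, with a median of 58.5% against 52.7%, which raises the chance of some of these letters and was not corrected for. The median log2 difference was 0.82 in 11 members with the NRF1 letters and 0.84 in 64 without, and 0.84 in 19 members with the GABPA letters and 0.82 in 56 without. It was 1.12 in 11 members with the YY1 letters and 0.82 in 64 without, and 2.52 in 4 members with the ERRA letters and 0.82 in 71 without. It was 0.60 in 35 members with the GC box and 0.95 in 40 without, and 1.202 in 6 members with TATAAA and 0.83 in 69 without. The median day 6 level was 121 FPKM with the NRF1 letters and 92.1 FPKM without, and 130 and 88.1 FPKM for GABPA. It was 73.0 FPKM with and 94.9 FPKM without the YY1 letters, and 129 and 93.8 FPKM for ERRA. For the GC box it was 65.0 and 111 FPKM, and for TATAAA 164 and 85.8 FPKM. None of these differences was tested. A match is a description of letters and not a site of binding.

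In complex V the day 4 libraries were more than 4-fold apart in 2 of 5 genes of the F1 head, which makes ATP. This was so in 0 of 3 genes of the ring and in 7 of 9 of the peripheral stalk and membrane, against 21.6% of all genes tested. The 2 F1 genes were Atp5d, with 77.7 and 397 FPKM at day 4, and Atp5e, with 36.4 and 192 FPKM. The SD of the day 4 replicate difference was 1.85 in the F1 genes and 1.79 in the stalk and membrane genes. Atp5b, the catalytic beta subunit, had 562 and 550.4 FPKM at day 6, against 429 and 260.0 FPKM at day 4, and Atp5a1, the alpha subunit, had 352 and 353 FPKM, against 339 and 160.2 FPKM. Both were higher at day 6 without overlap, with log2 differences of 0.73 (SE 0.54, limma adjusted p = 0.53) and 0.59 (SE 0.59, adjusted p = 0.64). The 5 F1 genes had a median of 0.73, and 3 were higher at day 6, against 41.6% of all genes tested. The proton-carrying ring is built from 1 protein, subunit c, encoded by 3 genes with different import peptides. Atp5g1 had 161 and 101 FPKM at day 6, against 47.1 and 97.5 FPKM at day 4. Atp5g2 had 404 and 355 FPKM at day 6, against 459 and 406 FPKM at day 4. Atp5g3 had 270.1 and 270.3 FPKM at day 6, against 219.6 and 559 FPKM at day 4. Atp5g1 was higher and Atp5g2 lower at day 6, both by narrow margins, and Atp5g3 overlapped.

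As shares of the 3 ring genes, Atp5g1 took 19.2 and 13.9% at day 6, against 6.49 and 9.17% at day 4, without overlap (exact two-sided permutation p = 0.333, the smallest possible). With only the highest row of each symbol Atp5g1 overlapped, in level at 94.1 and 45.6 FPKM at day 6, against 40.4 and 94.7 FPKM at day 4, and in share at 12.2 and 6.80%, against 5.62 and 8.94%. The difference in the mean share was then 2.24 percentage points in place of 8.73, and the log2 difference 0.08 in place of 0.90. Atp5g2 took 48.4 and 48.9% at day 6, against 63.3 and 38.2% at day 4, and Atp5g3 32.4 and 37.2%, against 30.3 and 52.6%. The ring genes thus kept a steady order at day 6, with Atp5g2 highest and Atp5g1 lowest, and in day 4 replicate 2 Atp5g3 was the highest. The proteins made from the 3 genes are identical once imported, so part of the coding sequence is alike, and whether shared reads moved these shares was not tested.

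The 9 genes of the peripheral stalk and the membrane sector had the highest median of any group of subunits, 2.10, which was the value of Atp5o. The median depended on which day 4 library was used. Day 6 exceeded day 4 replicate 1 by a median of 0.40 and day 4 replicate 2 by 4.41 on the log2 scale. In replicate 2, 7 of the 9 genes were under 0.25 of their lower day 6 value, against 15.3% of all genes tested. Atp5o, the stalk subunit also called OSCP (chr16:91925223-91931630, mm10), was the exception with close day 4 libraries, at 195 and 178 FPKM at day 6, against 52.1 and 34.8 FPKM at day 4. Its log2 difference was 2.10 (SE 0.48, limma adjusted p = 0.27), and it was picked after its values were seen. Atp5l, subunit g, had 228 and 173 FPKM at day 6, against 89.3 and 1.13 FPKM at day 4. Atp5j2, subunit f, had 388 and 311 FPKM at day 6, against 115 and 4.42 FPKM at day 4. Atp5mpl, a small proteolipid of the membrane sector, had 119 and 96.9 FPKM at day 6, against 36.5 FPKM and a listed 0 at day 4. Their log2 differences were 3.85, 3.80 and 4.14, and in all 3 day 4 replicate 1 lay between day 6 and replicate 2. Atp5j, stalk subunit F6, had 47.2 and 48.9 FPKM at day 6, against 195 and 35.3 FPKM at day 4, a log2 difference of -0.78 that rests on day 4 replicate 1.

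The replicates of the 2 days agreed to very different degrees, and this sets the limit of every comparison above. At day 6 all 92 tested members were within 2-fold between replicates on FPKM + 1, and the widest was Cox4i2 at 1.79-fold. At day 4, 28 members were within 2-fold and 38 (41.3%) were more than 4-fold apart, against 21.6% of all genes tested. Day 4 replicate 2 was under 0.25 of the lower day 6 value in 27 members (29.3%), against 15.3% of all genes, and day 4 replicate 1 in 4 members (4.35%), against 4.04%. Among genes at 20 FPKM or more at day 6 replicate 2 was under 0.25 of the day 6 value in 24 of 80 members (30%), against 21.0% of all such genes, and in 29 of 79 cytosolic ribosomal protein genes (36.7%).

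Transcript length went with it. The median length was 686.5 bases for the members tested and 2654 bases for all genes tested. Among genes at 20 FPKM or more at day 6, replicate 2 was under 0.25 of day 6 in 8 of 16 members and 46.02% of 113 genes shorter than 500 bases, and in 17.5% of 1940 genes of 2000 bases or more. Base composition went with the difference between the day 4 replicates. In the 22 members below 48% GC the median log2 difference of day 4 replicate 2 minus replicate 1 was -2.996, in 27 members from 48 to 52% it was -1.07, in 25 from 52 to 56% it was 0.79, and in 17 at 56% or more it was 1.25. Over all genes tested the same bands gave -1.39, -0.60, 0.14 and 1.11. At day 6 the corresponding medians lay between -0.14 and -0.06 in the members. Spearman's rho between GC content and the replicate difference at day 4 was 0.48 over 91 members and 0.64 over 11414 genes, and at day 6 it was -0.03 and -0.05. Set against day 6, both day 4 libraries ran with GC content, in opposite senses. Day 6 minus replicate 1 had medians of 0.007, 0.40, 1.38 and 1.17 in the members' bands, and -0.13, 0.39, 0.65 and 0.84 over all genes. Day 6 minus replicate 2 had 2.09, 1.13, 0.36 and -0.28 in the members, and 1.22, 1.02, 0.47 and -0.34 over all genes. Genes of 1 library share their preparation and depth, so these are descriptions. What part GC content, length and the preparation of the libraries had in the differences between days was not tested beyond the corrected fit, in which the members' median was 0.58 and that of all genes 0.53.

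**Figure D4:**
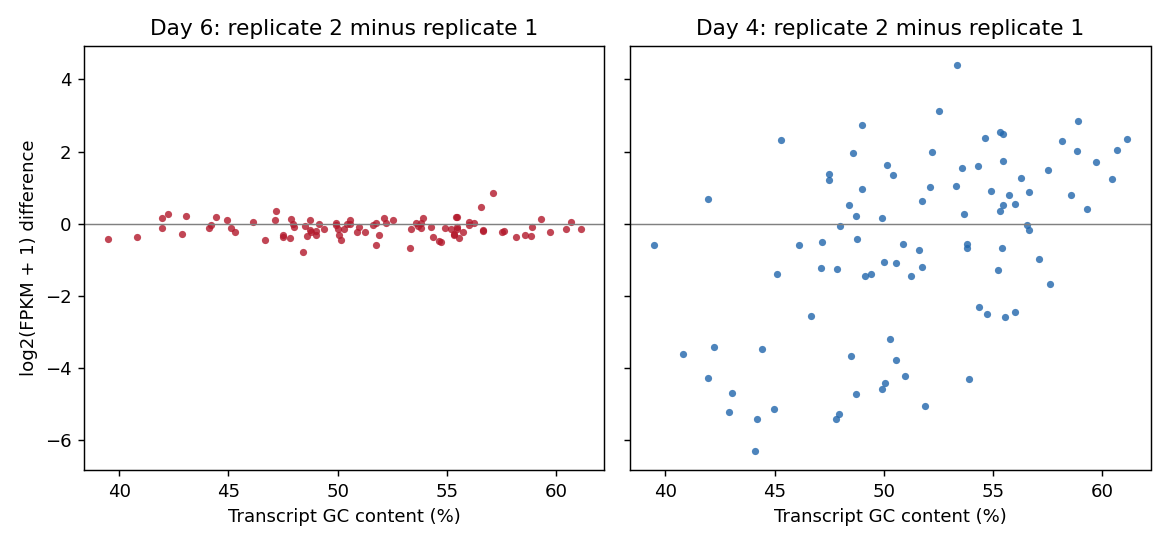
Replicate 2 minus replicate 1 on the log2(FPKM + 1) scale for the 91 tested members with a known GC content, against transcript GC content in percent, at day 6 (left) and at day 4 (right). Day 6 points stay close to 0 at every GC content, and day 4 points run upward, with a median of -2.996 below 48% GC and 1.25 at 56% or more.

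The mitochondrial genome encodes the partner subunits of complexes I, III, IV and V. None of the 13 protein genes is listed under its symbol, but 9 transcript rows lie on the mitochondrial chromosome and between them overlap 9 protein genes by position. Of these rows 3 overlap a ribosomal RNA gene, 1 of them together with mt-Nd1. Several rows span more than 1 gene, and strand is not given, so each row is named here by what it overlaps. The rows summed to 3339 and 3814 FPKM at day 6, against 21467 and 359 FPKM at day 4, which was 0.670 and 0.762% of all FPKM, against 4.76 and 0.0690%. The day 4 libraries were 59.7-fold apart and lay on either side of day 6. The row over mt-Co1, the catalytic subunit of complex IV, had 1134 and 1373 FPKM at day 6, against 2508 and 51.6 FPKM at day 4. The row over mt-Co2 had 1017 and 1182 FPKM at day 6, against 4753 and 46.2 FPKM at day 4, and the row over mt-Atp8 and mt-Atp6 of complex V had 236 and 147 FPKM, against 4947 and 46.1 FPKM. Set against the nuclear members, the mitochondrial rows came to 0.280 and 0.353 of their sum at day 6, against 2.63 and 0.0369 at day 4. With the 6 rows that overlap no ribosomal RNA gene the values were 0.235 and 0.276 at day 6, against 2.41 and 0.0224 at day 4. A balance of mitochondrial to nuclear subunit RNA at day 4 could therefore not be given from these libraries.

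The other genes of mitochondrial energy metabolism are given by lists, chosen by role, with the same background of 41.6% higher and 11.5% lower, and with 0 genes called by limma in any of them. Of 38 tested assembly factors beyond the Ndufaf genes, 19 were higher and 8 lower at day 6, with a median log2 difference of 0.47. Bcs1l, which inserts the Rieske protein into complex III, had 12.2 and 12.7 FPKM at day 6, against 2.22 and 1.07 FPKM at day 4, a log2 difference of 2.38 (SE 0.46, limma adjusted p = 0.27). Sdhaf4, an assembly factor of complex II, had 17.6 and 16.3 FPKM at day 6, against 5.36 and 3.14 FPKM at day 4. Sdhaf3, another of complex II, had 3.33 and 4.41 FPKM at day 6 and was listed at 0 in both day 4 libraries. Pet117, an assembly factor of complex IV, was lower, with 4.73 and 8.02 FPKM at day 6, against 51.7 and 46.1 FPKM at day 4, a log2 difference of -2.79 (SE 0.47, limma adjusted p = 0.27). In these 4 genes the day 4 libraries were close to each other.

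Of 20 tested genes of the citric acid cycle and pyruvate dehydrogenase, 10 were higher and 1 lower, with a median of 0.80. Idh2, the mitochondrial NADP-linked isocitrate dehydrogenase, had 49.6 and 57.5 FPKM at day 6, against 10.4 and 24.5 FPKM at day 4. Of 12 tested genes of coenzyme Q synthesis, which makes ubiquinone, 6 were higher and 2 lower, with a median of 0.66. Coq6, a hydroxylase of the ubiquinone ring, had 10.4 and 10.9 FPKM at day 6, against 2.16 and 3.98 FPKM at day 4. Of 10 tested carriers and uncouplers of the inner membrane and their outer-membrane partners, 6 were higher and 0 lower, with a median of 0.94. Slc25a4, an exchanger of ADP and ATP, had 466 and 391 FPKM at day 6, against 225 and 186 FPKM at day 4. Of 78 mitochondrial ribosomal protein genes, 33 were higher and 5 lower, with a median of 0.51, and of 80 tested cytosolic ribosomal protein genes, 32 were higher and 1 lower, with a median of 0.79.

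Of the 17 glycolysis genes tested, 14 had positive differences, against 71.6% of all genes tested. Of the 17, 7 were higher and 2 lower in both day 6 libraries, and the median was 0.73. Slc2a1, the glucose transporter GLUT1, had 864 and 819 FPKM at day 6, against 186 and 249.8 FPKM at day 4, a log2 difference of 1.96 (SE 0.50, limma adjusted p = 0.27). Tpi1, triose phosphate isomerase, had 408 and 476 FPKM at day 6, against 160.4 and 115 FPKM at day 4. Of 16 tested regulators of mitochondrial genes, 2 were higher and 4 lower, with a median of 0.10. Myc, a broad activator of growth and metabolic genes, had 26.4 and 26.2 FPKM at day 6, against 48.3 and 121 FPKM at day 4, a log2 difference of -1.51 (SE 0.61, limma adjusted p = 0.35). Lin28a, an RNA-binding protein of pluripotent cells, had 61.8 and 73.3 FPKM at day 6, against 123 and 95.0 FPKM at day 4. Ppargc1b, a coactivator of respiratory genes, had 1.98 and 2.27 FPKM at day 6, against 2.85 and 8.20 FPKM at day 4. Esrrb went the other way, with 5.11 and 4.35 FPKM at day 6, against 2.9996 and 1.13 FPKM at day 4. Of the 16 regulators, 10 had positive and 6 negative differences.

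Marker sums of several cell types differed between the days, and the shares of cells were not measured. The 10 pluripotent cell markers summed to 305 and 314 FPKM at day 6, against 845 and 1049 FPKM at day 4, and Pou5f1 had 54.9 and 42.0 FPKM at day 6, against 368 and 376 FPKM at day 4. Of these markers 6 were lower and 3 higher at day 6. The higher ones were Zfp42, with 21.4 and 24.9 FPKM at day 6, against 20.6 and 6.15 FPKM at day 4, Klf4, with 7.22 and 7.17 FPKM, against 4.06 and 4.18 FPKM, and Esrrb, with 5.11 and 4.35 FPKM, against 2.9996 and 1.13 FPKM. The 10 fibroblast markers summed to 156 and 290.2 FPKM at day 6, against 16.04 and 12.1 FPKM at day 4, and Postn was listed at 0 at day 4. Of the 8 tested, 6 were higher and 0 lower, and Thy1 and S100a4 overlapped. Thy1 had 3.25 and 1.46 FPKM at day 6, against 1.98 and 1.38 FPKM at day 4. S100a4 had 1.47 and 0.34 FPKM at day 6, against 5.13 FPKM and a listed 0 at day 4, a log2 difference of -0.45. The 8 primitive erythroid markers summed to 226 and 842 FPKM at day 6, against 0 and 1.604 FPKM at day 4. The 6 smooth muscle markers summed to 638 and 324 FPKM at day 6, against 419.9 and 1012 FPKM at day 4, and its members differed in direction. Acta2 had 249.6 and 222 FPKM at day 6, against 13.4 and 0.41 FPKM at day 4, and Cnn1 had 11.3 and 1.89 FPKM, against 31.9 and 98.8 FPKM. The part of these other cell types in the levels of the respiratory genes was not tested. Pluripotency markers were thus measured in all 4 libraries of the labelled embryonic stem cells, and so were markers of differentiated cells.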

How the data were processed

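RNA was measured by poly(A) RNA-seq in 4 libraries, 2 per day, with a stranded TruSeq kit per the labels' protocols. The tools were CASAVA and TopHat2 (version 2.0.11) on build mm10, per the submitters' processing notes. The sources used here do not name the quantifier or the annotation, or say whether strand was used. The authors deposited FPKM with a lower and an upper bound for 35656 transcript rows per library. A coverage signal, also deposited by the authors, was not used for any result.

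Symbols came from an NCBI RefSeq table of GRCm38.p6 (30290 rows) and GENCODE M21 (3585 and 160 rows), 1621 rows stayed unnamed, and FPKM were summed per symbol. limma 3.58.1 in R 4.3.3 (mean-variance trend, two-sided, Benjamini-Hochberg over all genes tested, threshold 0.05) was run on log2(FPKM + 1), a scale that understates the difference of low genes, for genes whose mean reached 1 FPKM. It was tested on simulated data. All log2 differences are day 6 minus day 4. Shares within paralogue groups had an exact permutation test. Tables were joined with pandas 2.3.3. The text names complex II, Cyc1, Cycs, Uqcrfs1, the complex I core, Atp5a1, Atp5b, the paralogues, the 5 largest and 5 smallest differences, the 5 highest levels, and up to 4 genes per list by p. Others are marked, and 1 gene under this rule is not reported here. Members and lists were chosen with earlier results of these data known.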

Additional observations from a re-analysis of the deposited data

How the results depend on the processing

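No gene passed limma's adjusted p of 0.05 as reported. With the replicate number as a block 67 genes (0.572%) and 1 member of 92 (1.09%, Cox7b) passed, and with the block plus a correction for GC content and length 502 genes (4.398%) and 8 members of 91 (8.79%). Over fits that leave out 1 library the counts ran from 0 to 7802 genes and from 0 to 66 members. Over 11716 genes the deviations of same-numbered libraries correlated at -0.09, and the design has only 2 pairs. This correlation cannot tell whether same-numbered libraries were paired. The replicate difference at day 4 went with GC content and had an SD of 1.69 over genes, against 0.36 at day 6.

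The members' median log2 difference of 0.82 was 0.19 when libraries were centred on the median of all genes, and 0.58 with the GC and length correction, with or without the block. Centring also took complex II to 0.49 and turned complexes I and III to -0.10 and -0.05, while the median of all genes turned to -0.12. Leaving out 1 library gave complex III from 0.18 to 0.93. The cause of these shifts was not tested. No median, and no log2 difference of a member named by rule, changed sign under a pseudocount of 0.1, no filter or a filter of 5 FPKM. The same held with the highest row or RefSeq rows only, and with interval midpoints, which were chosen after seeing the data. With the highest row the days of Atp5g1 overlapped and its log2 difference was 0.08 in place of 0.90.

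Changes of sign were looked for in the members named by rule and not in all 92 tested, so the lists that follow are not complete. Centring turned Atp5a1 to -0.04, Cox4i2 to -0.59, Cyc1 to -0.05, Ndufs7 to -0.01, Ndufv1 to -0.47 and Sdhb to -0.27. Quantile normalization turned Cox4i2 to -0.74, Ndufa4l2 to -0.09 and Ndufv1 to -0.05, and the GC and length correction turned Cox4i2 to -0.06, as it did with the block. Leaving out 1 library gave log2 differences from -1.05 to 0.30 for Atp5g3, -2 to 0.44 for Atp5j, -0.46 to 0.53 for Cox4i2, -1.02 to 1.00 for Cox6a1, -0.16 to 3.45 for Cycs, -0.13 to 6.16 for Ndufa4, -0.05 to 1.35 for Ndufs1, -0.41 to 1.64 for Ndufs7, -0.28 to 0.61 for Ndufv1, -0.09 to 0.81 for Sdhb and -1.03 to 0.93 for Uqcrfs1. Depth limits low members most at day 4, and deposited FPKM bounds were not used as errors because in day 6 replicate 1 58 of 101 member rows over 1 FPKM lay outside their own bounds.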
